A study of Mus musculus with 56 samples.

Results

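Chil3 (also named Chi3l3), Retnla, Mrc1, Mgl2, Clec10a and Pdcd1lg2 are the marker genes of alternative macrophage activation described here. Every peak that the annotation gave to 1 of these 6 gene names in 56 ChIP-seq peak lists was taken, which made 1060 of 1610519 peaks. Pdcd1lg2 held 390 of them and had a peak in all 56 lists, Mrc1 held 207 (in 55 lists), Clec10a 190 (54), Mgl2 160 (54), Retnla 86 (44) and Chil3 27 (16). The genes lie on chromosome 3 (Chil3), 16 (Retnla), 2 (Mrc1), 11 (Mgl2 and Clec10a) and 19 (Pdcd1lg2) of the mouse genome, build mm10.

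The cells were bone marrow-derived macrophages (BMDMs) of wild-type mice aged 8 to 12 weeks, grown for 6 days with L929 supernatant, a source of the growth factor M-CSF. In the first experiment (32 samples), untreated BMDMs were compared with BMDMs given interleukin-4 (IL-4, 20 ng/ml) for 1 hr, using antibodies to 8 targets: RNA polymerase II phosphorylated at serine 5 (RNAPII-pS5) or serine 2 (RNAPII-pS2) of its tail, histone H3 acetylated at lysine 27 (H3K27Ac), the transcription factor PU.1, the acetyltransferase p300 and the deacetylases HDAC1, HDAC2 and HDAC3. In the second experiment (24 samples), BMDMs first spent 24 hr without (ctrl) or with the same dose of IL-4 (IL-4 pretreatment, IL-4 PT). They were then left alone (ctrl) or exposed to lipopolysaccharide (LPS, 100 ng/ml) for 1 hr, and antibodies to RNAPII-pS5, RNAPII-pS2 and the NF-κB subunit p65 were used. The conditions are named by both steps: ctrl/ctrl had neither agent, IL-4 PT/ctrl only IL-4, ctrl/LPS only LPS, and IL-4 PT/LPS one after the other. Each of the 28 groups had 2 samples, described as biological replicates, and the cells were cultured populations in which fewer responding cells and less signal per cell cannot be told apart.

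Alternative activation is the program that IL-4 and IL-13 set in macrophages through the receptor chain IL-4Rα and the transcription factor STAT6. Chil3 (Ym1, a chitinase-like protein) and Retnla (RELMα, a resistin-like protein) encode secreted proteins, Mrc1 (the mannose receptor CD206), Mgl2 and Clec10a (the galactose-type lectins CD301b and CD301a) encode C-type lectins of the cell surface, and Pdcd1lg2 (PD-L2) encodes a ligand of the inhibitory receptor PD-1. In mouse macrophages these genes are widely used to tell the alternative state from the one set by LPS, in which p65 drives inflammatory genes.

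Scores came from the peak caller. They were a normalised tag signal for H3K27Ac and, for all other targets, −log10 of a p- or q-value, so that deeper libraries score higher. Scores of a gene's peaks were summed, and the value of a region was the highest score among the overlapping peaks of that antibody. A sample without a peak got the lowest score of that antibody, so that a log2 change against such samples depends on this floor, and no peak means only that none passed the caller's threshold. Differences are log2 changes ± SE relative to the median gene or region of each sample, tested with limma across all genes or regions, n = 2 samples per group, and called at a Benjamini-Hochberg adjusted p of at most 0.1. An exact permutation test of 2 against 2 samples cannot go below 0.3333.

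The lists held between 8440 peaks (HDAC3) and 71027 peaks (PU.1). Untreated p300 replicate 1 stood apart with 44787 peaks, while the p300 list with the most held 69360. In the second experiment the p65 lists held 9556 to 11026 peaks without LPS, 26305 and 26820 in ctrl/LPS, and 36738 and 38955 in IL-4 PT/LPS. The RNAPII-pS5 lists of that experiment held 14476 and 15349 peaks in ctrl/LPS and 17826 to 22149 in the other conditions. List size was made equal in an alternative fit with the same number of peaks per sample. For IL-4 PT/LPS against ctrl/LPS, the called regions of the marker genes then went from 19 of 73 to 11 of 63. The higher ones went from 12 to 4, and the lower ones stayed at 7. These counts join all antibodies of that experiment. The part of list size in each single peak listed in 1 condition alone is not given. The 4 RNAPII-pS2 lists made after 1 hr hold peak names with the treatment opposite to that in the labels. The labels were followed, values from them are given as "labelled", and every sign of that comparison turns around under the peak names. The labels give HDAC3 the catalogue number of the H3K27Ac antibody. All 7 macrophage markers examined (among them Csf1r, Adgre1 and Spi1) had RNAPII-pS5 peaks in every list of both experiments. None of 3 fibroblast markers had one. Of the markers of other blood cells, Cd3e (T cells), Pax5 (B cells), Ly6g (neutrophils) and Hba-a1 (erythroid cells) had none, while 3 of 4 T cell markers, 2 to 3 of 4 B cell markers, 1 to 3 of 4 neutrophil markers and 2 of 3 erythroid markers had a peak in some list. Some of these sums moved with 1 hr of IL-4. The summed H3K27Ac signal of the erythroid markers was 430.2 to 442 untreated and 1146 to 1178 with IL-4 (RNAPII-pS5 76.9 to 126 and 146 to 148), that of the macrophage markers 3157 to 3245 and 4311 to 4322, that of the B cell markers 849.8 to 867 and 598 to 600.2, and that of the T cell markers 187.5 to 194 and 120.4 to 132. Their part in the results was not tested.

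Reference sequence is printed first for 8 regions with a p300 peak in both IL-4 samples, picked after their values were seen so that each gene is shown with 1 or 2 regions that gained p300. They are not all such regions, and their motif content stands for no other: the regions at -17.3 kb of Pdcd1lg2, 11.4 kb of Retnla and 8.2 kb of Clec10a, whose p300 rose by 3.64, 2.91 and 2.53, are not shown and held no match. Capitals mark matches on either strand to the STAT palindromes TTCNNNGAA and TTCNNNNGAA or to the PU.1 core GAGGAAGT. Each stretch is from GRCm38 (mm10), plus strand, 200 bases around the p300 peak or, at the Retnla and Pdcd1lg2 promoters, the part of them outside exons. Distances are from the annotated start site, negative upstream.

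The Chil3 promoter region at -0.6 kb (chr3:106167916-106168115) held no match.
Chil3 -0.6 kb: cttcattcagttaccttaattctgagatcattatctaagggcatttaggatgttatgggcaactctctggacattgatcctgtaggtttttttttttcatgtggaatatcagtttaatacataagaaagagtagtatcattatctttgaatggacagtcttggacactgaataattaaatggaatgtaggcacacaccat
The Retnla promoter (chr16:48842362-48842550) held 1 TTCNNNNGAA palindrome and 1 PU.1 core, and the intergenic region at -11.0 kb (chr16:48831557-48831756) held neither.
Retnla promoter: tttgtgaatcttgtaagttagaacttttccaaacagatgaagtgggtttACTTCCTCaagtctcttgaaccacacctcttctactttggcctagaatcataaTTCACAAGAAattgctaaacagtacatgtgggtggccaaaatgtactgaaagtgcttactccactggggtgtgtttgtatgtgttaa
Retnla -11.0 kb: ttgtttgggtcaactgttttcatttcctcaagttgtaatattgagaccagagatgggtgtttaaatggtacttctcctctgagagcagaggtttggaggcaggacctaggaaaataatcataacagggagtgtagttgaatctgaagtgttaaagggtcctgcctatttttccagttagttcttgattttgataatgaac
The region at -24.8 kb of Mrc1 (chr2:14204514-14204713) held 1 palindrome of each spacing. It lies in an intron of the transcript NM_001081310, which ends near -7.2 kb, upstream of Mrc1 (NM_008625), and was given to Mrc1 by the nearest start site.
Mrc1 -24.8 kb: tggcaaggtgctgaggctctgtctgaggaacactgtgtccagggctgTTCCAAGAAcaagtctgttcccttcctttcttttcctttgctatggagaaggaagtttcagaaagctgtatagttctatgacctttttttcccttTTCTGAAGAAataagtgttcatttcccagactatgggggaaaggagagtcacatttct
The intergenic regions at -15.7 kb of Mgl2 (chr11:70114558-70114757) and at 22.8 kb of Clec10a (chr11:70189309-70189508) held 1 and 2 palindromes of the wider spacing.
Mgl2 -15.7 kb: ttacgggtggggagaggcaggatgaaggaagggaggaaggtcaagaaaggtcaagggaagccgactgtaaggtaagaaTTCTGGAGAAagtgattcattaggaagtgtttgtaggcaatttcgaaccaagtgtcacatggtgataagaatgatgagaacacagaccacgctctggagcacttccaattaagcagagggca
Clec10a 22.8 kb: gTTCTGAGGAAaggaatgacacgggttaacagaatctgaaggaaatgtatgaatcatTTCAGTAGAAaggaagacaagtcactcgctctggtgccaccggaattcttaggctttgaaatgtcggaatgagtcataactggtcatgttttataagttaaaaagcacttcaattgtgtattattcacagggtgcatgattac
The Pdcd1lg2 promoter (chr19:29410777-29410918) held 1 wide palindrome, and the intronic region at 31.7 kb (chr19:29442528-29442727) held 1 of the narrow and 2 of the wide spacing and 1 PU.1 core.
Pdcd1lg2 promoter: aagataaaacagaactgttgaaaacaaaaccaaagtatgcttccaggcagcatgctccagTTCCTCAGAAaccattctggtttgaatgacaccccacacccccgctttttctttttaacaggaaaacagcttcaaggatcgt
Pdcd1lg2 31.7 kb: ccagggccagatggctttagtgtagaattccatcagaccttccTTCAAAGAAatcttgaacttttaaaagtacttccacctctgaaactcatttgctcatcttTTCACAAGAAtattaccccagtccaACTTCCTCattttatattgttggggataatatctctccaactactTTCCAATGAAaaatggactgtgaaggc

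Among all p300 regions with a peak in both IL-4 samples (60792 windows of 200 bases), 9% held TTCNNNGAA, 11.5% held TTCNNNNGAA and 10.9% held the PU.1 core. Of the 34 such regions of the 6 genes, 5 held the first, 9 the second and 6 the third, and 12 (35.3%) held either palindrome, beside 19.4% of all regions. Over the 10980 regions whose p300 rose with IL-4 the share with either palindrome was 52.6%, and 9 of the 20 regions of the 6 genes that rose had one. A match describes the letters and is not a binding site.

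After 1 hr of IL-4, p300 rose at all 6 genes, and H3K27Ac rose at 4 of the 5 genes that had it. Among the places where p300 rose were the promoters of Chil3, Retnla and Pdcd1lg2 and distal regions of Retnla, Mrc1, Mgl2, Clec10a and Pdcd1lg2. RNAPII-pS5 rose at Retnla, Mrc1, Mgl2 and Pdcd1lg2, while none of the 6 genes was called for HDAC1 or HDAC2. Of 44 pairs of gene and antibody tested, 25 were called, 20 higher and 5 lower with IL-4 as labelled. RNAPII-pS2, whose peak names carry the opposite treatment, gave 4 of the 5 lower ones.

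By antibody, the background differed widely. For p300, 6 of 6 genes were called, beside 27.7% of all genes, and 20 of their 36 regions were higher and 1 was lower, beside 26.5% of all regions called. For H3K27Ac, 5 of 5 genes were called (4 higher, 1 lower) beside 45.5%, and 14 regions were higher and 2 lower of 17, beside 54% of all regions. For RNAPII-pS5, 4 of 6 genes were called, all higher, beside 3.16%, and 7 of 19 regions, all higher, beside 5.35%. For PU.1, 5 of 6 genes were higher beside 2.72%, whereas 0 of 50 regions were called by limma (18 at an unadjusted p of at most 0.05) beside 0.285% of all regions. HDAC3 was called at 1 of 5 genes beside 7.17%. HDAC2 was called at 0 of 5 (1 at an unadjusted p of at most 0.05) beside 0.755%, and HDAC1 at 0 of 5 (1 at an unadjusted p of at most 0.05) beside 0% of 12319 genes by limma, of which 970 had an unadjusted p of at most 0.05.

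**Figure D1:**
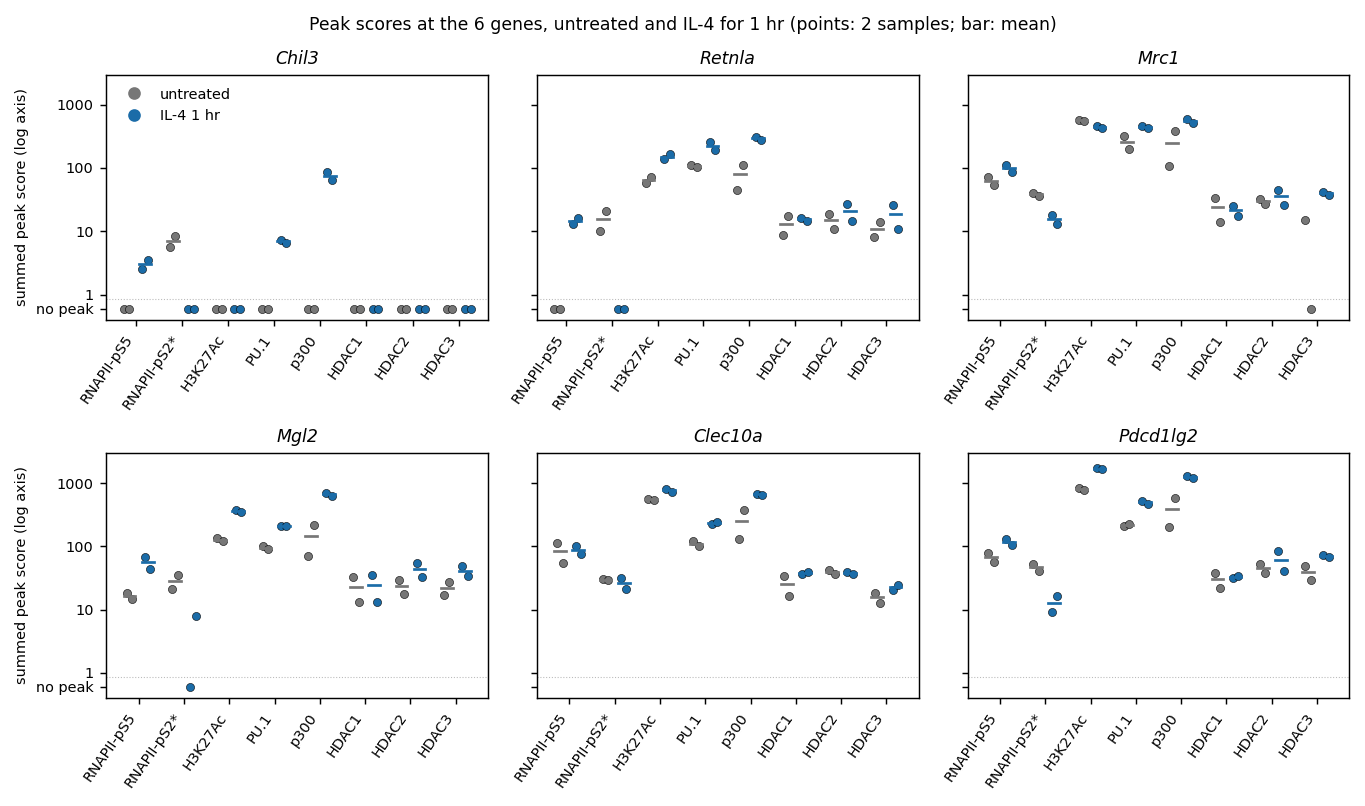
Summed peak score of each gene (y axis, log scale, with "no peak" below the dotted line) for the 8 antibodies of the 1 hr experiment (x axis), untreated in grey and IL-4 in blue; points are the 2 samples and bars their mean where both had a peak. The p300 scores are not centred here, and the median gene itself was 0.85 log2 units higher with IL-4. The asterisk marks RNAPII-pS2, whose peak names carry the opposite treatment to the labels.

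Of the 2 genes for secreted proteins, Chil3 had no p300 peak in untreated BMDMs and summed p300 scores of 86.1 and 65.5 with IL-4 (4.95 ± 0.71 on the log2 scale, limma adjusted p = 0.00265). Its promoter region at -0.6 kb carried most of this, with scores of 72.3 and 65.5. PU.1 peaks were likewise found only with IL-4 (7.34 and 6.6), but the change was not called (2.13 ± 1.09, adjusted p = 0.431). No H3K27Ac, HDAC1, HDAC2 or HDAC3 peak was assigned to Chil3 in either condition. RNAPII-pS5 at Chil3 was absent from both untreated lists and weak with IL-4, at 2.5 and 3.5, and was not called (1.08 ± 0.81, adjusted p = 0.568).

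Retnla had summed p300 scores of 45.5 and 113 in untreated BMDMs and of 312 and 275 with IL-4 (1.18 ± 0.17, adjusted p = 0.00282). At its promoter p300 was listed only with IL-4, with scores of 56.1 and 53.9 (4.69 ± 0.69, adjusted p = 3.56e-06). The intergenic region at -11.0 kb went from 20.6 and 62.5 to 148 and 138 in p300 (1.32 ± 0.21), and its H3K27Ac from 58 and 72.2 to 139.7 and 164 (1.28 ± 0.15, adjusted p = 0.0055). The neighbouring region at -8.8 kb showed no called p300 change (0.23, adjusted p = 0.548). RNAPII-pS5 was found at Retnla only with IL-4, at 13.1 and 16.4 (3.39 ± 0.67, adjusted p = 0.0676), and at -11.0 kb only with IL-4 as well, at 9.32 and 9.39.

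Of the lectin genes, Mgl2 is described first. Its summed p300 scores were 71.2 and 219 untreated and 705 and 614 with IL-4 (1.54 ± 0.13, adjusted p = 0.000311), and its summed H3K27Ac signal rose from 134 and 120.3 to 376 and 354 (1.53 ± 0.07, adjusted p = 0.000982). The region at -15.7 kb had p300 scores of 11.9 and 37.8 without and 227 and 208 with IL-4 (2.68 ± 0.21). Nearer the gene, p300 at -1.3 kb went from 13.6 and 50.4 to 204 and 190.4 (2.25 ± 0.21), and H3K27Ac at -0.8 kb from 94.5 and 75.9 to 313 and 299 (limma adjusted p = 0.00126). A small H3K27Ac region at -17.4 kb (25.8 and 32.5 untreated) was listed in neither IL-4 sample. RNAPII-pS5 over the gene rose from 18.2 and 14.5 to 68.5 and 43.9 (1.80 ± 0.31, adjusted p = 0.0528).

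Clec10a, the neighbouring lectin gene, had summed p300 scores of 129 and 370.5 untreated and of 676 and 645 with IL-4 (0.74 ± 0.12, adjusted p = 0.00505). H3K27Ac rose from 557 and 546 to 812.5 and 722 (0.48 ± 0.07, adjusted p = 0.00997). Its distal region at 22.8 kb went in p300 from 12.2 and 31.1 to 129 and 118 (1.99 ± 0.23, adjusted p = 4.11e-08), whereas the region at 18.7 kb was not called (0.11, adjusted p = 0.754). RNAPII-pS5 overlapped between the groups, with 113 and 54.2 untreated and 99.6 and 74.8 with IL-4 (0.19 ± 0.21, adjusted p = 0.725).

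Mrc1 had the smallest p300 change of the 6 genes, from summed scores of 108 and 379.6 to 605 and 517 (0.61 ± 0.13, adjusted p = 0.0148). Among the regions given to it, that at -24.8 kb went from 4.82 and 14.8 to 175 and 158 (3.63 ± 0.25, adjusted p = 7.87e-13), and RNAPII-pS5 at that place was found only with IL-4, at 19.3 and 11.6 (3.49 ± 0.62, adjusted p = 0.0547). At -22.4 kb p300 was not called (0.29, adjusted p = 0.363). H3K27Ac at Mrc1 was split: the region at -22.5 kb rose from 278 and 264 to 459 and 429.8 (0.77 ± 0.05), while the promoter region (304 and 281 untreated) was in neither IL-4 list, so that the summed signal fell by 0.34 on the log2 scale (SE 0.05, adjusted p = 0.0140) and the highest single score rose by 0.60. RNAPII-pS5 over Mrc1 rose from 71 and 53.6 to 112 and 87.6 (0.72 ± 0.15, adjusted p = 0.0808).

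The ligand gene Pdcd1lg2 had the most regions. Its summed p300 scores went from 200.5 and 587 to 1272 and 1193 (0.99 ± 0.13, adjusted p = 0.00156) and its H3K27Ac signal from 841.5 and 779 to 1716 and 1648 (1.06 ± 0.05, adjusted p = 0.00101). The promoter had a p300 peak in 1 untreated sample, at 8.53, and scores of 244 and 230.0 with IL-4 (5.46 ± 0.31, adjusted p = 1.84e-14). H3K27Ac there was listed only with IL-4, at 99.7 and 89.2 (3.43 ± 0.11), and so was RNAPII-pS5, at 23.7 and 24.6 (4.18 ± 0.56, adjusted p = 0.0381).

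In the intron at 31.7 kb of Pdcd1lg2, p300 rose from 9.6 and 21 to 196 and 191 (3.10 ± 0.23, adjusted p = 5.71e-12), and H3K27Ac was found only with IL-4, at 152 and 134 (4.02 ± 0.11). A peak of some antibody other than RNAPII-pS2 lay at this place in 4 of 14 untreated and in 14 of 14 IL-4 lists. The promoter counts were 2 and 11 of 14. By contrast the intronic place at 8.7 kb had a peak in all 56 lists, and p300 there changed by 1.01 ± 0.21 (not called without IL-4 replicate 1) and H3K27Ac by 0.97 ± 0.03. RNAPII-pS5 over the gene rose from 79.6 and 56.3 to 131 and 105 (0.85 ± 0.14, adjusted p = 0.0448).

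**Figure D2:**
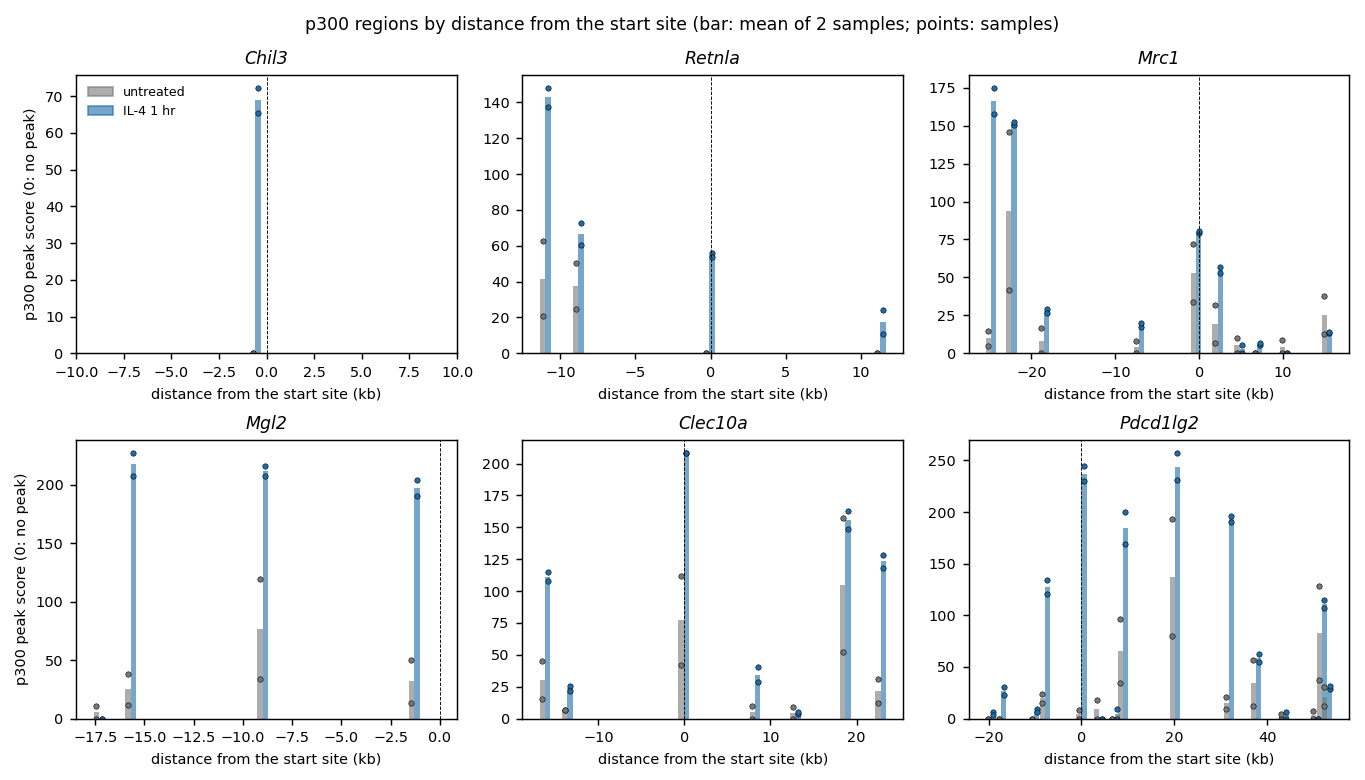
p300 peak score of each region (y axis, 0 where no peak was listed) by its distance from the gene's start site in kb (x axis, dashed line at the start site), untreated in grey and IL-4 for 1 hr in blue; bars are the mean of 2 samples and points the samples. The promoter of Pdcd1lg2 went from none and 8.53 to 244 and 230.0, and untreated replicate 1 is the lower grey point at -15.7 kb of Mgl2.

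PU.1, which is bound at many macrophage enhancers before any stimulus, rose at 5 genes by 0.54 (Mrc1) to 0.91 (Pdcd1lg2). At Pdcd1lg2 its summed scores went from 208 and 229 to 528 and 474 (adjusted p = 0.0160), and at Mgl2 from 101 and 89.8 to 209.8 and 209 (0.85 ± 0.20, adjusted p = 0.0403). The median gene was itself 0.29 log2 units higher in PU.1 with IL-4, and the changes are relative to it. HDAC3 was called at Mrc1 alone, from 15.2 and no peak to 42.4 and 37.3 (2.69 ± 0.60, adjusted p = 0.000793).

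With the RNAPII-pS2 libraries as labelled, 4 of 6 genes were called, beside 7.05% of all genes, and all 4 were lower in the libraries labelled IL-4 (Retnla -3.30, Mgl2 -2.95, Pdcd1lg2 -1.87 and Mrc1 -1.25). Pdcd1lg2, for example, scored 52.9 and 41.2 in the libraries labelled untreated and 9.02 and 16.2 in those labelled IL-4. Under the peak names these 4 genes would be higher with IL-4. Of 16 tested among 18 other genes known to be induced by IL-4, 0 were higher and 11 lower as labelled. Of 8 tested genes of the IL-4 receptor and its signalling, 0 were higher and 3 lower as labelled. Among these were Socs1 and Cish (-5.65 each), whose RNAPII-pS5 rose (1.79 and 1.57). Which treatment these lists had was not tested. Retnla had RNAPII-pS2 peaks only in the libraries labelled untreated, and it was not fitted when one of these was left out. Leaving out 1 library ended the call of Mgl2 (either untreated replicate, adjusted p = 0.132 and 0.232), of Mrc1 (any but IL-4 replicate 1, 0.110 to 0.411) and of Pdcd1lg2 (untreated replicate 1, 0.138).

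Without untreated replicate 1, the p300 calls of all 6 genes held (5.80 at Chil3, 1.36 at Retnla, 0.55 at Mrc1, 1.58 at Mgl2, 0.82 at Clec10a and 1.06 at Pdcd1lg2), and 22 of 36 regions were called, 20 of them among the 21 called with all libraries. Without IL-4 replicate 1 the calls were lost at Mrc1 for p300 (adjusted p = 0.269), at Mgl2 (adjusted p = 0.119) and Mrc1 (0.223) for RNAPII-pS5, at all 5 genes for PU.1 (0.271 to 0.677), and at Mrc1 for HDAC3 (0.181), the last also without IL-4 replicate 2 (0.264), which ended 4 of the PU.1 calls too (0.109 to 0.358). The PU.1 call at Retnla was also lost without untreated replicate 1, and without centring on the median gene 7 pairs of gene and antibody were called in place of 25. Chil3 in p300 and Retnla in RNAPII-pS5 had peaks only with IL-4. Neither was fitted when an IL-4 replicate was left out, so these calls were not tested in that way.

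In the second experiment, 24 hr of IL-4 left RNA polymerase II high at Chil3, Retnla and Mgl2. With LPS alone, no RNAPII-pS5 peak was listed at Retnla or Clec10a. When LPS followed IL-4, RNAPII-pS5 fell at Chil3, Retnla, Mrc1, Mgl2 and Clec10a, and RNAPII-pS2 at Chil3, Retnla and Mgl2 (not called at Mrc1, -0.70, adjusted p = 0.107, or Clec10a, -0.97, adjusted p = 0.111). Retnla and Clec10a then had RNAPII-pS5 peaks, which at Clec10a lay partly at a place without one in IL-4 PT/ctrl. Pdcd1lg2 varied least as a whole gene, although its regions changed.

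For 24 hr of IL-4 (IL-4 PT/ctrl against ctrl/ctrl), 3 of 6 genes were higher in RNAPII-pS5 beside 14.9% of all genes called, and in RNAPII-pS2 3 were higher and 1 lower beside 26.6%. In p65, 1 of 5 was higher beside 11.2%. At the level of regions, 10 were higher and 3 lower of 27 in RNAPII-pS5 (21.2% of all regions), and 2 were higher of 17 in p65 (5.67%).

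For LPS alone (ctrl/LPS against ctrl/ctrl), RNAPII-pS5 was higher at 1 and lower at 2 of 6 genes beside 38%, RNAPII-pS2 lower at 2 beside 41%, and p65 higher at 2 and lower at 3 of 5 beside 38%. Of the regions, 3 were higher and 8 lower in RNAPII-pS5 beside 37.2%, and 4 were higher and 4 lower in p65 beside 37.8%. The p65 score of the median gene was itself 1.64 log2 units higher with LPS alone, and 2.29 units higher for LPS after IL-4, and the p65 changes are relative to it.

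For IL-4 under LPS (IL-4 PT/LPS against ctrl/LPS), RNAPII-pS5 was higher at 2 and lower at 1 of 6 genes beside 19.5%, RNAPII-pS2 higher at 3 beside 18.3%, and p65 called at 0 of 5 by limma (2 at an unadjusted p of at most 0.05) beside 18.5%. Of the regions, 3 were higher and 1 lower in RNAPII-pS5 beside 19%, and 6 were higher and 3 lower in p65 beside 37.3%. For LPS after IL-4 (IL-4 PT/LPS against IL-4 PT/ctrl), RNAPII-pS5 was lower at 5 of 6 beside 30.9%, RNAPII-pS2 lower at 3 beside 34.5%, and p65 higher at 1 and lower at 1 of 5 beside 38.4%. The difference between the LPS response after IL-4 and that after ctrl, tested as an interaction, was called at 4 genes in RNAPII-pS5 beside 12.6%, at 3 in RNAPII-pS2 beside 13.3% and at 0 of 5 in p65 (0 at an unadjusted p of at most 0.05) beside 12.6%.

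**Figure D3:**
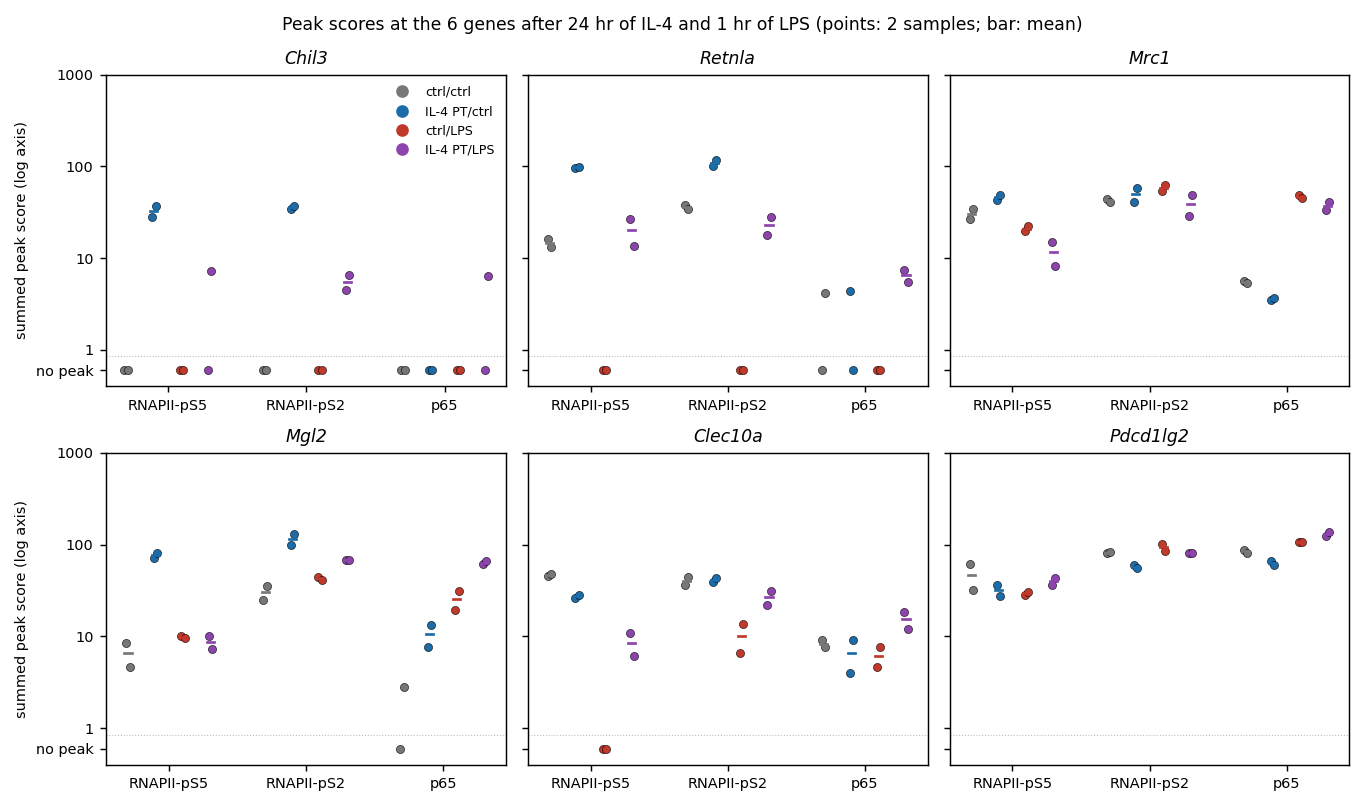
Summed peak score of each gene (y axis, log scale, with "no peak" below the dotted line) for RNAPII-pS5, RNAPII-pS2 and p65 (x axis) in the 4 conditions (grey without either agent, blue with IL-4, red with LPS, purple with both); points are the 2 samples and bars their mean where both had a peak. Retnla has RNAPII-pS5 and RNAPII-pS2 peaks in every condition but ctrl/LPS, and Chil3 only after IL-4.

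Chil3 had no RNAPII-pS5 peak in ctrl/ctrl or ctrl/LPS, scores of 28.1 and 37.4 in IL-4 PT/ctrl, and a peak in 1 of 2 IL-4 PT/LPS samples, at 7.25. The rise with IL-4 (4.42 ± 0.74, adjusted p = 0.0138) and the fall with LPS after IL-4 (-3.21 ± 0.74, adjusted p = 0.0224) were called. RNAPII-pS2 gave the same order, with 34.3 and 37 in IL-4 PT/ctrl, 4.49 and 6.63 in IL-4 PT/LPS and no peak elsewhere. IL-4 PT/LPS exceeded ctrl/LPS in RNAPII-pS2 (1.93 ± 0.47, adjusted p = 0.0398), but with a floor 4 times as high this difference was -0.072. That call was also lost without either ctrl/LPS replicate or IL-4 PT/LPS replicate 2 (adjusted p from 0.114 to 0.158). The peaks lay in the first intron, from 0.6 kb, and in intergenic sequence 23.0 kb from the start site.

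Retnla had RNAPII-pS5 scores of 16.1 and 13.2 in ctrl/ctrl, 96.1 and 99.5 in IL-4 PT/ctrl, no peak in ctrl/LPS, and 26.6 and 13.5 in IL-4 PT/LPS. It thus rose with IL-4 (2.67 ± 0.38, adjusted p = 0.00887), fell with LPS alone (-3.01 ± 0.38, adjusted p = 0.00362) and was higher with IL-4 under LPS (3.43 ± 0.38, adjusted p = 0.00733). RNAPII-pS2 behaved alike, from 37.5 and 34.2 to 101 and 116 with IL-4 and to no peak with LPS alone (-4.91 ± 0.31, adjusted p = 0.000277), with 17.8 and 27.7 in IL-4 PT/LPS. This fall with LPS alone was not called without intergenic peaks (limma adjusted p = 0.915). The RNAPII-pS2 peaks in ctrl/ctrl lay only upstream of the gene. The difference of the LPS responses in RNAPII-pS2 (2.29 ± 0.43, adjusted p = 0.0303) depended on the upstream peaks: it was -1.54 without intergenic peaks and -0.070 with ranks, neither called, and at the end of the gene (2.1 kb) it was -2.08 ± 0.43 (adjusted p = 0.0185).

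The places at Retnla separated these changes. At the end of the gene, 2.0 kb from the start site, RNAPII-pS5 was found after IL-4 only, at 73.7 and 82.2 without LPS and at 14.9 and 13.5 with it. The upstream regions at -11.0 kb (6.89 and 6.05 in ctrl/ctrl, 13.5 and 9.84 in IL-4 PT/ctrl) and at -8.8 kb (9.2 and 7.13, 8.85 and 7.47) had no RNAPII-pS5 peak in any of the 4 LPS samples, pretreated or not. These were the only RNAPII-pS5 peaks of Retnla in ctrl/ctrl, so that without intergenic peaks the change with LPS alone was 0.34 and not called. With LPS after IL-4, the RNAPII-pS5 peaks of Retnla lay at the gene. At the promoter, p65 peaks were listed in IL-4 PT/LPS alone, at 7.41 and 5.56 (2.02 ± 0.21 against ctrl/LPS, adjusted p = 0.00101). These scores were below the medians of those lists (9.34 and 9.4), which held the most p65 peaks.

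Mgl2 had RNAPII-pS5 scores of 8.56 and 4.64 in ctrl/ctrl, 71.4 and 81.5 in IL-4 PT/ctrl, 10.1 and 9.68 in ctrl/LPS, and 10.2 and 7.34 in IL-4 PT/LPS. It rose with IL-4 (3.52 ± 0.36, adjusted p = 0.00505) and fell with LPS after IL-4 (-3.03 ± 0.36, adjusted p = 0.00408), and the difference of the LPS responses was -4.01 ± 0.52 (adjusted p = 0.0285). In RNAPII-pS2 the fall was smaller, from 100.0 and 130.4 to 68.8 and 68.7 (-1.07 ± 0.21, adjusted p = 0.0107), and the highest single score did not fall (0.21).

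At the end of Mgl2, 8.1 kb from the start site, RNAPII-pS5 was listed in IL-4 PT/ctrl alone, at 30.8 and 27.5 (4.32 ± 0.26 against ctrl/ctrl), and RNAPII-pS2 at 21.3 and 22.9. At -9.0 kb RNAPII-pS5 was 3.67 and none in ctrl/ctrl, 5.39 and 8.55 in IL-4 PT/ctrl, 10.1 and 9.68 in ctrl/LPS and 6.34 and 7.34 in IL-4 PT/LPS. It was higher with LPS alone (2.29 ± 0.49, adjusted p = 0.0163) and with IL-4 alone (1.55 ± 0.49, adjusted p = 0.0946), the latter called in 1 of 8 fits without 1 library. Its p65 scores were none in ctrl/ctrl, none and 4.94 in IL-4 PT/ctrl, 19.6 and 31.5 in ctrl/LPS, and 40.8 and 46.2 in IL-4 PT/LPS (3.20 ± 0.66 for LPS alone, adjusted p = 0.0118).

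The place at -15.7 kb of Mgl2, which gained p300 after 1 hr, had peaks only after IL-4 in the second experiment, in 6 of 6 IL-4 PT/ctrl and 4 of 6 IL-4 PT/LPS lists. RNAPII-pS2 there was 24.6 and 39 in IL-4 PT/ctrl and 14.5 and 16.3 in IL-4 PT/LPS, with none in the 4 samples without IL-4. The p65 scores were 5.34 and 8.48 in IL-4 PT/ctrl and 14.4 and 8.14 in IL-4 PT/LPS, again with none elsewhere, and IL-4 PT/LPS exceeded ctrl/LPS (2.78 ± 0.40, adjusted p = 0.00353). The rise of p65 with IL-4 alone was called for the region (2.56 ± 0.40, adjusted p = 0.0271) and for Mgl2 as a whole (2.54 ± 0.51, adjusted p = 0.0363), the former not without ctrl/ctrl replicate 1 or 2.

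Clec10a had no RNAPII-pS5 peak with LPS alone. Scores were 45.3 and 47.6 in ctrl/ctrl, 26.4 and 28.1 in IL-4 PT/ctrl, none in ctrl/LPS and 10.9 and 6.19 in IL-4 PT/LPS, so that the fall with LPS (-4.69 ± 0.38, adjusted p = 0.00175) was smaller after IL-4 (difference 3.07 ± 0.54, adjusted p = 0.0369). This difference was lost without IL-4 PT/ctrl replicate 1 or 2 (adjusted p = 0.105 for both), without intergenic peaks and with a floor 4 times as high (adjusted p up to 0.502). At the gene (0.4 kb) it was not called (1.36 ± 1.07, adjusted p = 0.477), and IL-4 PT/LPS replicate 2 had its peak, of 6.19, at 22.8 kb only. The higher RNAPII-pS5 in IL-4 PT/LPS than in ctrl/LPS (2.23 ± 0.38, adjusted p = 0.0155) was lost without intergenic peaks, with ranks and with the higher floor (adjusted p up to 0.693). RNAPII-pS2 fell with LPS alone from 36 and 44.9 to 6.64 and 13.6 (-2.31 ± 0.39, adjusted p = 0.00457). IL-4 alone did not give a called change in either form (-0.84, adjusted p = 0.252, and 0.09, adjusted p = 0.944).

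The region at 18.6 kb of Clec10a had no RNAPII-pS5 peak in the 4 LPS samples (against 10.2 and 11 in ctrl/ctrl and 4.38 and 10.6 in IL-4 PT/ctrl). At 22.8 kb, RNAPII-pS2 was listed in IL-4 PT/LPS, at 17.8 and 27.4, and in 1 ctrl/LPS sample, at 6.89, and p65 in IL-4 PT/LPS alone, at 4.61 and 3.38, as was RNAPII-pS5, at 3.33 and 6.19. Its p300 rose after 1 hr of IL-4. The p65 scores there were below the medians of their lists (9.34 and 9.4).

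Mrc1 had RNAPII-pS5 scores of 26.6 and 34 in ctrl/ctrl, 43.4 and 49 in IL-4 PT/ctrl, 19.5 and 22.2 in ctrl/LPS, and 15 and 8.2 in IL-4 PT/LPS. The rise with IL-4 was not called (0.54 ± 0.34, adjusted p = 0.423), while the fall with LPS after IL-4 was (-1.94 ± 0.34, adjusted p = 0.00870). Within the gene, RNAPII-pS5 at 1.1 kb went from 26.1 and 35.5 in IL-4 PT/ctrl to 4.54 and none in IL-4 PT/LPS. At -22.3 kb, p65 was none in ctrl/ctrl, 3.48 and 3.72 in IL-4 PT/ctrl, 37.1 and 34.8 in ctrl/LPS and 21 and 29.4 in IL-4 PT/LPS, a gain with LPS (3.73 ± 0.23, adjusted p = 0.000434) that was smaller after IL-4 (difference -2.45 ± 0.32, adjusted p = 0.00439). The ctrl/ctrl samples stood at the p65 floor of 1.31 there, so both sizes depend on it. Over the whole gene the p65 difference was not called (-0.36 ± 0.38, limma adjusted p = 0.632). The place near -24.8 kb, which gained p300 and RNAPII-pS5 after 1 hr, had RNAPII-pS5 in ctrl/ctrl alone here (5.44 and 6.1).

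Pdcd1lg2 as a whole had RNAPII-pS5 scores of 61.5 and 32.1 in ctrl/ctrl, 36.5 and 27.5 in IL-4 PT/ctrl, 28.2 and 30.6 in ctrl/LPS, and 36.6 and 42.8 in IL-4 PT/LPS, and none of the 5 comparisons was called (adjusted p from 0.346 to 0.779). RNAPII-pS2 was lower with 24 hr of IL-4, from 80.8 and 82.7 to 59.3 and 55.1 (-0.45 ± 0.14, adjusted p = 0.0613), a call that 5 of 8 left-out libraries ended (adjusted p from 0.102 to 0.243). Its regions moved in both directions. At the 5′ end (0.2 kb) RNAPII-pS5 was listed in IL-4 PT/ctrl, at 11.2 and 10.4, and in 1 IL-4 PT/LPS sample, at 6.88, but not without IL-4 (2.89 ± 0.71 for IL-4, adjusted p = 0.0418, lost without any 1 of the ctrl/ctrl and IL-4 PT/ctrl samples). In the intron at 20.4 kb it was lower with IL-4, from 16.1 and 12.3 to 3.47 and none (-2.67 ± 0.53, adjusted p = 0.0194, lost without ctrl/ctrl replicate 1).

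The region near -7.5 kb of Pdcd1lg2 stood out with LPS alone. RNAPII-pS5 was listed there in ctrl/LPS alone, at 5.63 and 6.31, and RNAPII-pS2 at 9.52 and 9.39, with 3.12 in 1 IL-4 PT/LPS sample. p65 was 8.3 and 7.1 in ctrl/LPS, 3.74 in 1 IL-4 PT/ctrl sample and none in IL-4 PT/LPS (difference of the LPS responses -3.77 ± 0.65, adjusted p = 0.0107). The promoter was the reverse, with p65 in IL-4 PT/LPS alone, at 6.89 and 6.22 (2.05 ± 0.17 against ctrl/LPS, adjusted p = 0.000451). These promoter scores were below the medians of those lists (9.34 and 9.4). The strongest p65 region, at 20.3 kb, had 61 and 58.1 in ctrl/ctrl, 41.5 and 37 in IL-4 PT/ctrl, 52.6 and 56.6 in ctrl/LPS and 36.2 and 46.1 in IL-4 PT/LPS. Its LPS change was -1.17 ± 0.13 relative to the median region and -0.13 without centring, the median region having risen by 1.04.

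**Figure D4:**
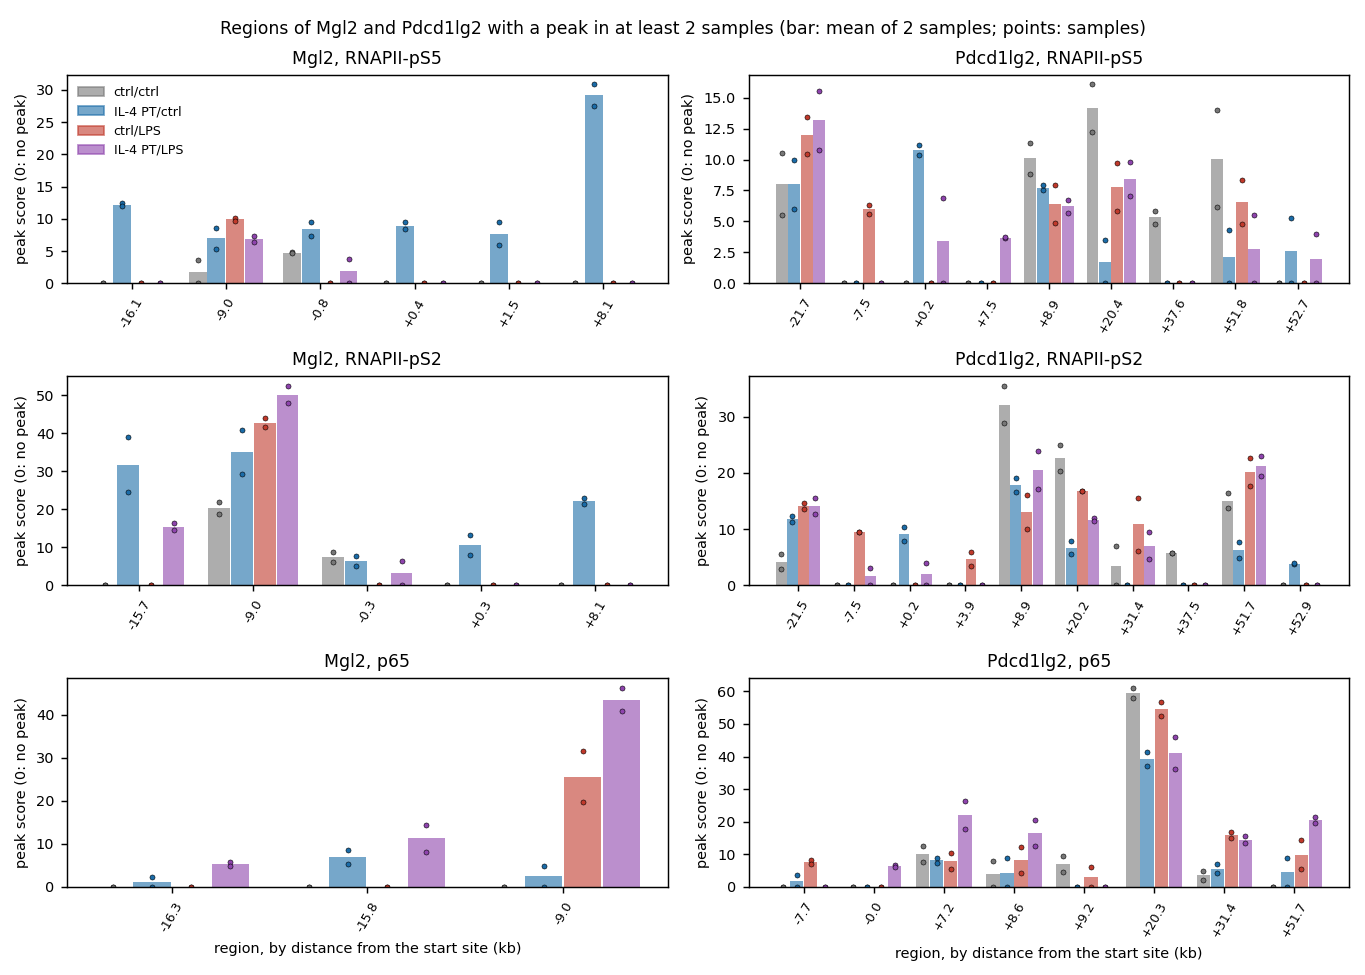
Peak scores (y axis, 0 where no peak was listed) of the regions of Mgl2 and Pdcd1lg2 with a peak in at least 2 samples, by distance from the start site in kb (x axis), for RNAPII-pS5, RNAPII-pS2 and p65 in the 4 conditions; bars are the mean of 2 samples and points the samples. RNAPII-pS5 at 8.1 kb of Mgl2 stands in IL-4 PT/ctrl alone, and p65 at the Pdcd1lg2 start site in IL-4 PT/LPS alone.

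The gene-level p65 values were 5.68 and 5.41 (ctrl/ctrl) against 48.6 and 44.9 (ctrl/LPS) at Mrc1 (1.44 ± 0.27, adjusted p = 0.00888) and none and 2.83 against 19.6 and 31.5 at Mgl2 (2.05 ± 0.51, adjusted p = 0.0233; 0.110 without ctrl/LPS replicate 2). Pdcd1lg2 went from 87.8 and 80.6 to 107 and 108, which was less than the median gene (-1.29 ± 0.11, adjusted p = 0.00132), and turned to 0.35 (adjusted p = 0.0427) without centring. Clec10a (-2.12) and Retnla (-2.48) were also called lower relative to the median gene, but without centring they were not called (-0.48 and -0.84). Retnla had 1 p65 peak among these 4 samples, at 4.21, and its call was lost without that sample or either ctrl/LPS replicate (adjusted p from 0.125 to 0.157). That of Clec10a was lost without ctrl/LPS replicate 1 (0.116), and the rise of Mrc1 with LPS after IL-4 (1.07 ± 0.27, adjusted p = 0.0284) without either IL-4 PT/LPS replicate (0.110 and 0.147).

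Of the differences between the LPS responses, those of Chil3 and Mrc1 in RNAPII-pS5 (-3.54, adjusted p = 0.0967, and -1.74, adjusted p = 0.0815) were lost when any of 7 of the 8 libraries was left out, and those of Chil3 and Mgl2 in RNAPII-pS2 (-2.82, adjusted p = 0.0529, and -1.37, adjusted p = 0.0448) in 6 and 5 of the 8 cases. That of Mgl2 in RNAPII-pS5 was called without each of the 8. The fall of Chil3 and of Clec10a in RNAPII-pS5 with LPS after IL-4 was lost without IL-4 PT/ctrl replicate 2 (adjusted p = 0.102 for both), while those of Retnla, Mrc1 and Mgl2 were called without each library. Among the other calls, the rise of Mgl2 with LPS alone (0.98 ± 0.36, adjusted p = 0.0874) and the lower Mrc1 with IL-4 under LPS (-1.20 ± 0.34, adjusted p = 0.0658) held in 3 of 8 cases, and the higher RNAPII-pS2 of Clec10a with IL-4 under LPS (1.42 ± 0.39, adjusted p = 0.0579) in 5 of 8.

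Other genes of the pathway gave a mixed picture. Of 10 genes of the IL-4 receptor and its signalling, RNAPII-pS5 rose at 2 after 1 hr (beside 3.16% of all genes called), namely Socs1 (1.79 ± 0.12) and Cish (1.57 ± 0.17), feedback inhibitors of cytokine signalling. In p300, 2 of the 10 were higher, the same pair, and 1 was lower, near the 27.7% of all genes called. The lower one was Il13ra1, the second receptor chain (-0.61 ± 0.13). After 24 hr of IL-4 RNAPII-pS5 was higher at 2, Socs1 (2.56 ± 0.21) and Cish (1.14 ± 0.32), and lower at 1, Il13ra1 (-2.64 ± 0.49), beside 14.9%. Of 18 other genes known to be induced by IL-4, p300 rose at 9 of 18 (beside 27.7%), H3K27Ac rose at 12 and fell at 2 of 16 (beside 45.5%), and RNAPII-pS5 rose at 4 of 17 (beside 3.16%), among them Flt1 (1.45 ± 0.20) and Arg1, which encodes arginase (1.02 ± 0.19). With 24 hr of IL-4, RNAPII-pS5 rose at 5 of these 18 (beside 14.9%) and RNAPII-pS2 at 11 of 18 (beside 26.6%), and with LPS alone RNAPII-pS5 fell at 2 and rose at 6, near the 38% of all genes called. The median change with IL-4 in p300 was 0.36 over these genes, 1.08 over the 6 markers and -0.02 over all genes. Of 10 relatives and neighbours of the 6 genes, p300 rose at 3 of 7 (beside 27.7%), among them Chil4, a paralogue of Chil3 (2.46 ± 0.15), and Retnlg, a paralogue of Retnla (1.41 ± 0.15).

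Genes whose RNAPII-pS5 scores over the 8 samples of the second experiment were most like each marker are given as a description, with no test, and their correlations rest on the 4 conditions, which all genes share. Chil3 had a peak in 3 of the 8 samples, and Retnla and Clec10a in 6 each. In the others they stood at the floor, so their correlations also depend on it. They were Mesp2, Cd320 and Pwwp2a for Chil3 (Pearson's r from 0.997 to 1.00), Rpl10a, Cyth3 and Rab3il1 for Retnla (0.984 to 0.986), and Etv5, Hist1h2bp and Kansl2 for Mrc1 (0.963 to 0.976). For Mgl2 they were Ado, Syt10 and Mocs3 (0.973 to 0.974), for Clec10a Usp49, Pcbd2 and Ppih (0.987 to 0.995), and for Pdcd1lg2 E2f8, Zbtb26 and Lars2 (0.900 to 0.929). Among the markers themselves, Chil3 and Mgl2 were closest (0.862), followed by Retnla and Clec10a (0.762) and by Chil3 and Retnla (0.707). Pdcd1lg2 was below 0 against Chil3, Retnla, Mrc1 and Mgl2 (-0.566 to -0.280) and near 0 against Clec10a (0.025).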

How the data were processed

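ChIP-seq peak lists of 56 mouse BMDM samples were used. Per the submitters' processing notes the tools were BWA 0.7.10, SAMtools 0.1.19, MACS2 2.0.10 and HOMER 4.2, with build mm10. For 52 lists the authors deposited MACS2 peaks whose score, from its values, is −log10 of a p- or q-value that was not scaled for depth. For the 4 H3K27Ac lists the authors deposited HOMER histone regions with a normalised tag signal. Peaks were called per sample, blacklisted regions removed and each peak given its nearest gene by the authors, so read depth is not given and peak numbers stand in for it. Peaks inside Mrc1 that lie nearer to Mir511 carry that name and were not counted.

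Scores were summed per gene or, for regions (peaks sharing at least 1 bp), the highest was taken. Missing values got the antibody's lowest score, and log2 values were centred per sample on the median of features with a peak in every sample. Features with a peak in at least 2 samples were fitted with limma 3.58.1 (R 4.3.3, empirical Bayes with a trend), 1 fit per antibody and experiment, with Benjamini-Hochberg adjustment over all features and a call at 0.1. A call also needed a peak in the groups compared. This condition was added after the data were seen, because centring alone made pairs of empty groups differ. Features at the floor in both samples of a group have no spread of their own. Tables were made with pandas 2.3.3, and the fit was tested on simulated data, with changes added only to features with a peak in every sample. That test was not aimed at changes against groups without a peak. Regions named were those called in a comparison, with the highest mean score or nearest the start site, per gene and antibody; genes of the lists were named among the 4 largest called changes, and the alternatives tried are given under the processing heading. Same-numbered samples did not deviate together (correlations from -0.0476 to 0.066 over 52 values, each pair of groups at gene and at region level), so the numbers were not taken to pair samples. The 6 genes, the gene lists and the markers were chosen with earlier results of these data known.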

Additional observations from a re-analysis of the deposited data

Results flagged for a closer look

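At 7 combinations of gene and antibody the response to 1 hr of LPS differed between BMDMs pretreated with IL-4 and BMDMs that were not, by the interaction term of the limma fit (n = 2 samples per group). In RNAPII-pS5 the response after IL-4 was lower than that after ctrl, on the log2 scale, at Chil3 (-3.54, adjusted p = 0.0967), at Mrc1 (-1.74, adjusted p = 0.0815) and at Mgl2 (-4.01, adjusted p = 0.0285), and higher at Clec10a (3.07, adjusted p = 0.0369). In RNAPII-pS2 it was lower at Chil3 (-2.82, adjusted p = 0.0529) and Mgl2 (-1.37, adjusted p = 0.0448) and higher at Retnla (2.29, adjusted p = 0.0303). The Retnla value was -1.54 without intergenic peaks and -0.070 with ranks, neither called, and the Clec10a call was lost without intergenic peaks and with a floor 4 times as high. At Chil3 both groups without IL-4 had no peak, and the ctrl/LPS samples had none at Retnla (RNAPII-pS2) and Clec10a (RNAPII-pS5), so these sizes depend on the floor. No LPS response of Chil3 without IL-4 was thus measured. The values entered for it, 0.33 in RNAPII-pS5 and -0.22 in RNAPII-pS2, came from centring alone. Without centring the Chil3 difference was -3.33 in RNAPII-pS5, not called (limma adjusted p = 0.114), and -2.71 in RNAPII-pS2 (limma adjusted p = 0.0502). No cause was tested.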

How the results depend on the processing

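Groups of 2 samples, scores that grow with depth and features at the floor limit these results, and a missing peak is not an absence. Of 2657 values of the 6 genes and their comparisons under the alternatives, 2281 kept their direction and side of the threshold. Another 213 dropped below it and 75 rose past it. The direction turned around in 18 with a call in the main fit or the alternative, and in 70 with a call in neither. The 2281 include values called in neither fit, and alternatives of the threshold alone keep every direction. The alternatives that set the floor after centring, or made calls without a peak in the groups compared, were chosen after seeing the data.

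Of 44 pairs of gene and antibody, 25 were called after 1 hr of IL-4; the count was 7 without centring, 10 with ranks, 14 with the floor set after centring, 12 without intergenic peaks, 9 with the highest score, and 14 to 23 when 1 library was left out. For IL-4 PT/ctrl the count of 8 became 3 among genes with a peak in every sample. For ctrl/LPS, 10 became 5 with a peak in every sample and 5 without intergenic peaks. For IL-4 PT/LPS against ctrl/LPS, 6 became 10 at an unadjusted p of at most 0.05 and 3 to 8 with 1 library left out. For the difference of the LPS responses, 7 became 4 with a floor 4 times as high, 3 with a peak in every sample, 4 without intergenic peaks, 4 at an adjusted p of at most 0.05, and 3 to 4 with 1 library left out.

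Of the regions, 45 were called after 1 hr of IL-4, 93 at an unadjusted p of at most 0.05 and 28 to 56 with 1 library left out. With a peak in every sample, where 12 regions remained, the counts fell from 32 to 7 (IL-4 PT/ctrl), 32 to 8 (ctrl/LPS), 19 to 1 (IL-4 PT/LPS against ctrl/LPS), 42 to 2 (IL-4 PT/LPS against IL-4 PT/ctrl) and 35 to 4 (difference). In the main fits each count was of 73 regions. The shares of all regions called there follow for RNAPII-pS5, RNAPII-pS2 and p65 in turn. They were 21.2%, 28.2% and 5.67% for IL-4 PT/ctrl and 37.2%, 40.7% and 37.8% for ctrl/LPS. IL-4 PT/LPS gave 19%, 22.6% and 37.3% against ctrl/LPS and 35.6%, 37.6% and 47.3% against IL-4 PT/ctrl. The difference gave 23%, 25.7% and 28.7%. IL-4 PT/LPS against ctrl/LPS gave 11 with a floor 4 times as high and 11 with the same number of peaks per sample, IL-4 PT/LPS against IL-4 PT/ctrl gave 27 to 40 with 1 library left out, and the difference gave 10 with a floor 4 times as high and 17 to 27 with 1 library left out. The cause of these changes was not tested beyond the fewer features or samples that some alternatives hold.

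With the replicate block, the gene counts were 26, 8, 10, 7, 12 and 5 in the order above (with IL-4 PT/LPS against IL-4 PT/ctrl, 10 in the main fit, before the difference) and the region counts 55, 31, 31, 18, 40 and 31. The numbers pair no samples, and the block moved no count by more than 1.5 times.

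Among values called in the main fit or the alternative, directions turned around at Mrc1 with the highest score (H3K27Ac 0.60, PU.1 -0.077). Without intergenic peaks, LPS alone gave -0.54 (Mgl2) and 0.34 (Retnla) in RNAPII-pS5 and -2.46 (Mgl2) in RNAPII-pS2, and the Retnla difference was -2.36 and -1.54. With ranks, LPS alone gave 1.07 (Pdcd1lg2, RNAPII-pS2), and -0.050 (Mgl2) and 0.17 (Pdcd1lg2) in p65, LPS after IL-4 gave -0.10 (Mrc1) and 0.51 (Pdcd1lg2) in p65, and the Retnla difference in RNAPII-pS2 was -0.070. Chil3 in RNAPII-pS2, IL-4 PT/LPS against ctrl/LPS, was -0.072 with the higher floor, and Mgl2 in RNAPII-pS2, LPS after IL-4, 0.21 with the highest score. Without centring, p65 at Pdcd1lg2 was 0.35 for LPS alone and 1.05 after IL-4, and at Clec10a 1.32 after IL-4. The cause was not tested.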
